A study of Mus musculus with 54 samples.

Results

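Mup20, Mup21, Hsd3b5, Cyp2d9, Cyp4a12a, Cyp4a12b and Elovl3 are mouse liver genes that are known from other work to be switched on by pulses of growth hormone. They were taken by symbol from a table of 18079 genes, in which all 7 are present, and they were chosen with their differences between genotypes in these samples already known. Levels by genotype are therefore a description, without a test. The study compared livers of female C57BL/6J mice aged 8 to 12 weeks, kept on normal chow without restriction in 12 h of light and 12 h of dark. One group lacked BMAL1 (KO), the activator of the circadian clock that the gene Arntl encodes. Another, called Liver-RE and labelled BMAL1-stop-FL, lacked BMAL1 apart from its reconstitution in the liver, and the third was wild type (WT). No source used here names the agent that restores BMAL1 or the liver cells in which it does so. Livers of 3 mice per genotype were taken at ZT0, 4, 8, 12, 16 and 20 (zeitgeber time, in h after lights on), so that each genotype had 18 libraries.

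Growth hormone reaches the liver in separated pulses in male rodents and more evenly in females. A pulse acts through the growth hormone receptor and the kinase JAK2 on STAT5b, a transcription factor of hepatocytes, and the pattern of the hormone makes many liver genes more abundant in one sex. The 7 genes belong to the group that is abundant in male mouse liver and scarce in female liver. Neither growth hormone in the blood nor STAT5b activity was measured here, so the name of the group rests on that earlier knowledge.

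Cyp4a12a and Cyp4a12b are neighbours on chromosome 4, at 115299046 to 115332815 and at 115411624 to 115439034 on GRCm38, the assembly that mm10 names. Their transcripts matched at 98.4% of aligned bases, and 20 of 1523 aligned coding bases differed. One stretch of exon 6 is shown because it holds 4 of these differences close together, at chr4:115326702-115326761 for Cyp4a12a and at chr4:115432955-115433014 for Cyp4a12b, both on the plus strand of GRCm38 (GENCODE). Capitals mark the bases that differ.
Cyp4a12a: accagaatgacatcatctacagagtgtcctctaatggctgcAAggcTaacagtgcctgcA
Cyp4a12b: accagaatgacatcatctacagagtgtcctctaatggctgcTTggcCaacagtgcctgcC
Of all stretches of 100 bases, the read length, 35.8% in the Cyp4a12a transcript also occur in Cyp4a12b, so the values of this pair are uncertain. The same share was 38.8% for Mup20, all with the pseudogene Mup-ps19. It was 9.86% for Cyp2d9, 7.79% for Hsd3b5 and 4.50% for Mup21, and no stretch of Elovl3 occurred in another gene.

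RefSeq promoters (GRCm38.p6, 250 bases before and 50 after the start) matched 3 of the 7 genes, and they are shown because these genes moved together between genotypes. They lie at chr3:98645485-98645784 on the minus strand for Hsd3b5, at chr15:82452127-82452426 on the plus strand for Cyp2d9 and at chr4:62150792-62151091 on the minus strand for Mup21. Capitals mark matches to the motifs searched, on either strand.
Hsd3b5: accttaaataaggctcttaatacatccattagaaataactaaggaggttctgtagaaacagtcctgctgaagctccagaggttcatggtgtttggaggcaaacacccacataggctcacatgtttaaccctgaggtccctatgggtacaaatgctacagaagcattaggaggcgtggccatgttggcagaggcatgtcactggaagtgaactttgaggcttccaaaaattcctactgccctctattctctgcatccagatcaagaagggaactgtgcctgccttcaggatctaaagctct
Cyp2d9: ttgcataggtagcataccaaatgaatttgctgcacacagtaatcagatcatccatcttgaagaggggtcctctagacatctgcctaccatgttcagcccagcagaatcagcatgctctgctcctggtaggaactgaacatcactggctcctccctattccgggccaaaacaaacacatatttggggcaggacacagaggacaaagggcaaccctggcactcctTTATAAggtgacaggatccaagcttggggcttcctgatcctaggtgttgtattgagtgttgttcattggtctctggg
Mup21: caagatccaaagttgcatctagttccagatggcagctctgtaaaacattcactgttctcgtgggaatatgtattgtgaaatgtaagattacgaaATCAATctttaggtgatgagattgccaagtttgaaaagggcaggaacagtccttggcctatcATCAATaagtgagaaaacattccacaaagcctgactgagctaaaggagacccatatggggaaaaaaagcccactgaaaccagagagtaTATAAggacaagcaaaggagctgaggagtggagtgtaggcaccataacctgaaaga
The letters of the STAT5 site, TTCNNNGAA, were in none of the 3 windows, against 8.30% of 32851 RefSeq promoters. ATCAAT, the core of the site of the liver factor ONECUT1, was in the Mup21 window at -156 and -94 from the start and in 7.54% of all promoters. TATAA was in the Mup21 window at -6 and in the Cyp2d9 window at -26, where TTATA on the other strand overlaps it, and in 24.9% of all promoters. The E-box CACGTG, a site of BMAL1 and its partner CLOCK, and the D-box TTATGTAA were in none of the 3, against 7.15% and 0.938% of all promoters.

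Depth, as judged by the step that a single read makes in low values, lay between 25.2 and 41.6 M reads per library (mega reads) with a median of 30.4. Values are taken as FPKM, that is, per length of the gene and per depth of the library. Xist was at 11.7 FPKM or more in every library and the Y-linked Ddx3y at 0.0674 or less, the pattern of female tissue. Arntl itself ranged from 6.26 to 8.74 FPKM in the libraries labelled KO without a call for a rhythm, from 0.894 to 10.7 in Liver-RE and from 0.350 to 12.1 in WT, so its summed value does not show the loss of the protein. Clock genes of 2 libraries stood nearest to another harvest time than their own, namely Liver-RE ZT0 replicate 3 and WT ZT8 replicate 2. In the 7 genes themselves, Liver-RE ZT4 replicate 2 and KO ZT0 replicate 1 stood apart, and values without them are given below. Summed hepatocyte markers, 11 of 12 in the table, had medians of 31760 FPKM in KO, 45870 in Liver-RE and 49960 in WT. Without Alb (albumin) these were 15060, 12550 and 14850 FPKM for KO, Liver-RE and WT. Of the 11 markers 3 were lower in KO than in WT, against 13.5% of all genes, and 8 were not called, with a median log2 difference of 0.04. Summed cholangiocyte markers, all 6 in the table, had medians of 37.4 FPKM in KO, 15.3 in Liver-RE and 18.6 in WT. Spp1 and Sox9, the 2 that could be tested, were higher in KO than in WT, against 16.5% of all genes. These sums rest mostly on Spp1, which averaged 39.5 FPKM in KO, 13.4 in Liver-RE and 17.7 in WT. Sox9 averaged 1.69, 0.466 and 0.652 FPKM. Of 10 Kupffer cell markers 9 were lower in KO than in WT, against 13.5% of all genes. Their summed medians were 238 FPKM in KO, 255 in Liver-RE and 304 in WT. The endothelial, stellate, lymphocyte and adipocyte lists had 2 calls or fewer each for KO against WT. No marker of these lists was at 0 throughout. Fewer cells of a type and less RNA per cell cannot be told apart in whole liver, and the part of these cells in the differences below was not tested.

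Mup20 encodes darcin, a urinary protein that acts as a male scent, and Mup21 is a relative of it in the lipocalin family. Over 18 libraries each, Mup20 had a lowest, median and highest level of 25.8, 301 and 1464 FPKM in KO, 9.94, 62.6 and 308 FPKM in Liver-RE, and 19.2, 31.0 and 77.4 FPKM in WT. Of 18 KO livers 17 were above every WT liver, while 8 Liver-RE livers were above the WT range, 8 inside it and 2 below it. The means were 391 ± 358 FPKM in KO, 95.2 ± 83.9 FPKM in Liver-RE and 36.6 ± 15.2 FPKM in WT (SD, n = 18). Mup20 spread over a 56.8-fold range among KO livers and a 31-fold range among Liver-RE livers, against a 4.04-fold range among WT livers. Without KO ZT0 replicate 1, the lowest, the KO range was 13-fold.

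Mup21 ran lower than Mup20 in every genotype, with 8.28, 35.9 and 151 FPKM as its lowest, median and highest level in KO, 2.79, 8.97 and 41.1 FPKM in Liver-RE, and 1.90, 5.51 and 11.7 FPKM in WT. Its mean was 7.86 times that of WT in KO and 1.92 times that of WT in Liver-RE. On the log2(FPKM + 1) scale the difference of means was 2.51 ± 0.276 (SE) for KO minus WT, 0.65 ± 0.276 for Liver-RE minus WT and -1.86 ± 0.276 for Liver-RE minus KO. Mup21 and Mup20 of Liver-RE overlapped with WT at all 6 harvest times. Of 4 relatives tested, 2 were higher in KO than in WT, against 16.5% of all genes, and 1 was lower, against 13.5%. The higher ones were Mup7, at 1.96 FPKM in KO and 0.351 FPKM in WT (log2 difference 0.73 ± 0.271, adjusted p = 0.0361), and Mup12, at 0.749 FPKM in KO and 0.204 FPKM in WT (0.44 ± 0.132, adjusted p = 0.00836). Mup5 was lower, at 0.138 FPKM in KO and 0.465 FPKM in WT (-0.33 ± 0.0999, adjusted p = 0.00943). It passed the minimum mean of 0.5 FPKM for a test only through its Liver-RE mean of 0.916 FPKM. Mup12 would not have passed that minimum without its KO libraries, as it averaged 0.566 FPKM in Liver-RE and 0.204 FPKM in WT. Its call as higher in KO is therefore not independent of the filter. The most abundant relative, Mup3, was not called, with 1946 ± 1039 FPKM in KO, 1876 ± 1107 FPKM in Liver-RE and 1742 ± 716 FPKM in WT and a log2 difference of 0.01 ± 0.293 for KO minus WT (adjusted p = 0.985, limma).

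**Figure D1:**
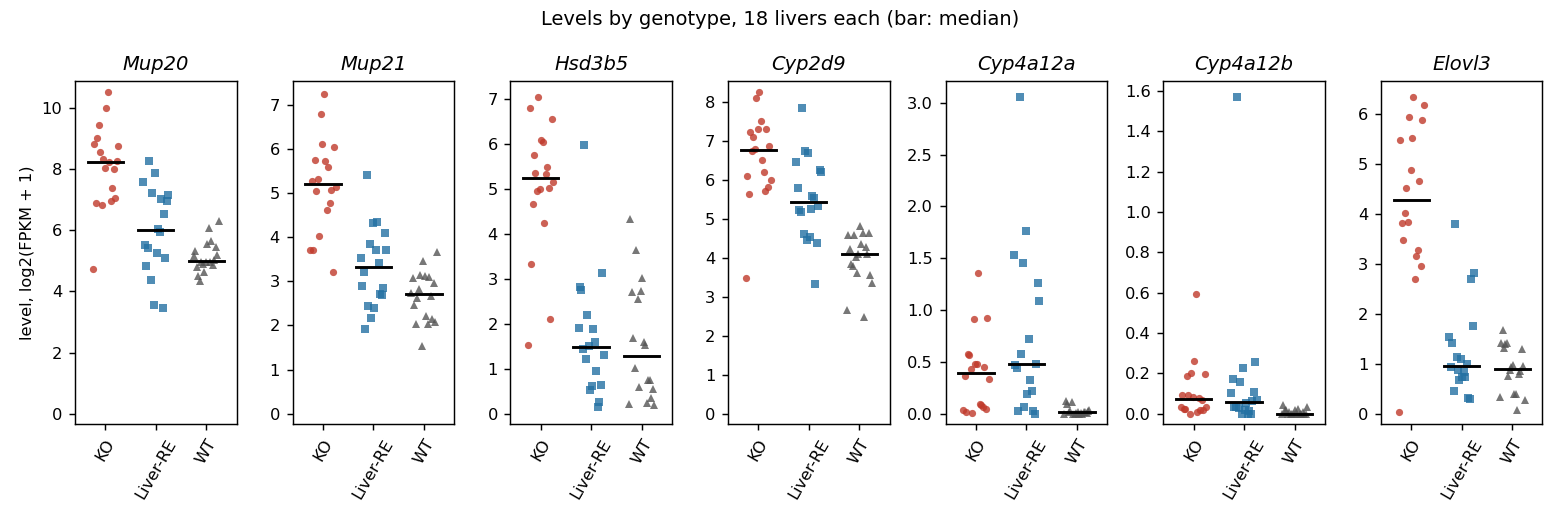
Level of each gene as log2(FPKM + 1) in every liver by genotype, with KO as circles, Liver-RE as squares and WT as triangles; the bar is the median of 18 livers, and each panel has its own axis. The KO median is above the WT median for all 7 genes, the KO spread is wide, as for Mup20 between 25.8 and 1464 FPKM, and a single Liver-RE liver stands at the top of its group in all 7 panels.

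Hsd3b5 and Cyp2d9 work on steroids. Hsd3b5 is a hydroxysteroid dehydrogenase that reduces and so inactivates androgens, and Cyp2d9 is a cytochrome P450 that hydroxylates testosterone. Hsd3b5 had a lowest, median and highest level of 1.89, 37.2 and 132 FPKM in KO, 0.119, 1.79 and 62.3 FPKM in Liver-RE, and 0.140, 1.46 and 19.0 FPKM in WT. Of the KO livers 14 were above every WT liver and 4 lay inside the WT range, whereas 16 of 18 Liver-RE livers lay inside it. The median of Hsd3b5 in KO was 25.5 times that of WT, and in Liver-RE it was 1.23 times that of WT.

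Cyp2d9 in Liver-RE lay between the other groups. Its lowest, median and highest levels were 10.2, 108 and 302 FPKM in KO, 8.99, 42.5 and 227 FPKM in Liver-RE, and 4.61, 16.1 and 27.3 FPKM in WT. In Liver-RE, 13 of 18 livers were above the highest WT liver and none was below the lowest. The log2 difference of means for Cyp2d9 was 1.54 ± 0.277 (SE) for Liver-RE minus WT and -1.07 ± 0.277 for Liver-RE minus KO. For Hsd3b5 the differences were 0.14 ± 0.412 and -3.31 ± 0.412, so that its Liver-RE mean lay near WT.

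Relatives of both had smaller differences than they did between KO and WT, though not in every other comparison. Hsd3b2 averaged 14.2 ± 2.81 FPKM in KO, 11.1 ± 2.91 FPKM in Liver-RE and 9.02 ± 2.38 FPKM in WT (SD, n = 18), a log2 difference of 0.62 ± 0.094 for KO minus WT (adjusted p = 6.64e-07). Hsd3b3 and Hsd3b7, an enzyme of bile acid synthesis, were also higher in KO than in WT, by log2 differences of 0.50 ± 0.101 and 0.79 ± 0.111. Of 6 Cyp2d relatives tested 2 were higher in KO than in WT, against 16.5% of all genes, and 2 were lower, against 13.5%. Cyp2d10 averaged 276 ± 58.9 FPKM in KO and 202 ± 27.0 FPKM in WT. Cyp2d40 went the other way, with 9.89 ± 3.34 FPKM in KO and 31.5 ± 12.1 FPKM in WT (adjusted p = 1.34e-10), and its difference of 1.52 for Liver-RE minus KO was larger in size than that of Cyp2d9. For Liver-RE minus WT, Hsd3b3 differed by 0.32 ± 0.101 (adjusted p = 0.0455) and Hsd3b2 by 0.28 ± 0.094 (adjusted p = 0.0580).

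Elovl3 and the Cyp4a12 pair work on fatty acids. Elovl3 is an elongase that makes very long saturated and monounsaturated chains. Its lowest, median and highest levels were 0.0213, 18.7 and 80.7 FPKM in KO, 0.235, 0.951 and 13.0 FPKM in Liver-RE, and 0.0573, 0.877 and 2.21 FPKM in WT. In KO 17 livers were above every WT liver, between 5.51 and 80.7 FPKM, and 1, ZT0 replicate 1, was below every WT liver at a level of about 1.02 reads. In Liver-RE 14 of 18 livers lay inside the WT range and 4 above it.

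Other elongases did not show this pattern. Elovl6, which lengthens palmitate, fell to 28.2 ± 10.3 FPKM in KO, against 71.4 ± 58.5 FPKM in WT (log2 difference -0.95 ± 0.309, adjusted p = 0.0152). Elovl1, Elovl2 and Elovl5 were not called between any pair of genotypes. Elovl2, for example, averaged 119 ± 14.6 FPKM in KO, 131 ± 24.3 FPKM in Liver-RE and 133 ± 20.7 FPKM in WT.

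Cyp4a12a and Cyp4a12b are fatty acid hydroxylases, and both stayed low. Cyp4a12a had a lowest, median and highest level of 0.00716, 0.318 and 1.56 FPKM in KO, 0, 0.393 and 7.32 FPKM in Liver-RE, and 0, 0.0113 and 0.0928 FPKM in WT. At the estimated depth the highest WT value stands for about 6.57 reads, and 5 of 18 WT libraries were listed at 0, so no fold is given. Cyp4a12a is the gene of the group with a median in Liver-RE above that in KO, and 14 of 18 Liver-RE livers were above the highest WT liver, against 11 of 18 KO livers.

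Cyp4a12b had 0.0522 FPKM as its median in KO, with a highest value of 0.508. Its median was 0.0416 FPKM in Liver-RE, with a highest value of 1.97, and it was listed at 0 in 10 of 18 WT libraries, with a highest value of 0.0314. The mean over all libraries was 0.477 FPKM for Cyp4a12a and 0.0858 FPKM for Cyp4a12b, under the minimum of 0.5 that a gene needed for the test across genes, so 5 of the 7 genes passed it. Cyp4a14, a more abundant relative, averaged 379 ± 208 FPKM in KO, 286 ± 176 FPKM in Liver-RE and 150 ± 142 FPKM in WT, and it was higher than in WT in KO (log2 difference 1.43 ± 0.286, adjusted p = 0.000103) and in Liver-RE (0.95 ± 0.286, adjusted p = 0.0338). Of 4 relatives tested, 3 were higher in KO than in WT, against 16.5% of all genes. Cyp4a10 was not called between them, at 110 FPKM in KO and 111 FPKM in WT (limma, adjusted p = 0.674). At 210 FPKM in Liver-RE it was higher there than in KO (1.06 ± 0.269, adjusted p = 0.00179).

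Within single harvest times, all 3 KO livers were above all 3 WT livers at 5 of 6 times for Mup20, Mup21, Hsd3b5, Cyp2d9, Cyp4a12a and Elovl3, and at 2 times for Cyp4a12b. Of all genes tested, 1.67% had such a gap upward at 5 times or more, a share that was read for no purpose here because the genes were chosen on this contrast. The overlap was at ZT20 for Mup21, where 1 KO liver was at 8.28 FPKM, against 11.7 FPKM in the highest WT liver, and at ZT0 for the other 5. At ZT0 Mup20 was at 25.8, 444 and 117 FPKM in the KO livers, against 34.6, 39.0 and 27.0 FPKM in the WT livers. Elovl3 at ZT0 was at 0.0213, 43.7 and 13.2 FPKM in the KO livers, against 0.265, 1.66 and 2.21 FPKM in the WT livers. In both cases KO replicate 1 was below all 3 WT livers and the other KO livers were above them.

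Between Liver-RE and WT, Cyp2d9 was higher without overlap at 4 times, which 0.221% of all genes tested reached, and Cyp4a12a, which was not tested, also at 4. Hsd3b5 and Elovl3 were higher without overlap at 1 time each. Elovl3 at ZT20 was at 5.53, 2.40 and 6.05 FPKM in the Liver-RE livers, against 1.47, 0.951 and 0.207 FPKM in the WT livers. Between Liver-RE and KO, 4 of 5 tested genes were lower without overlap at 3 times or more, against 10.4% of all genes, and Elovl3 at 4 times, which 4.70% reached. These shares of all genes were likewise read for no purpose, because the genes were chosen with the differences between all genotypes known.

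A daily rhythm was tested as a 24 h cosine and sine on log2(FPKM + 1), which the choice of the genes by genotype means did not use. None of the 5 tested genes passed an adjusted p of 0.05 (limma), against 0% of all genes in KO, 3.82% in Liver-RE and 23.5% in WT. At an unadjusted p under 0.05 there were 2 of 5 in KO and none in Liver-RE or WT. Of all 11759 genes, 1105 were under it in KO, 2479 in Liver-RE and 4424 in WT. With the 6 times fitted as separate means again none of the 5 passed the adjusted threshold. Dbp, a clock output gene, had a peak-to-trough fold of 13.4 in Liver-RE and 24.8 in WT in the same test (adjusted p = 3.29e-05 and 2.30e-08), against 1.32 in KO (adjusted p = 0.938).

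Hsd3b5 had the lowest adjusted p of the group in WT, 0.207, and in Liver-RE, 0.240, with peak-to-trough folds of 3.55 and 4.19 and fitted peaks at ZT5.53 and ZT2.46. Its WT means were 8.23, 4.92, 3.67, 3.65, 0.514 and 0.288 FPKM in the order of harvest times (n = 3 each). All 6 WT livers of ZT16 and ZT20 were at 0.692 FPKM or less. At ZT0, in contrast, the 3 WT livers were at 0.162, 19.0 and 5.48 FPKM, a wider range than that of the 6 means.

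Cyp2d9 had the lowest p in KO, with a 4.08-fold peak-to-trough, a peak at ZT9.98, an unadjusted p of 0.00266 and an adjusted p of 0.316. Its KO means were 42.3, 130, 180, 191, 94.0 and 78.3 FPKM over the 6 times. Mup21 in KO had a fitted peak at ZT10.3 and an unadjusted p of 0.0423 (adjusted p = 0.508). Mup20 in KO averaged 196, 527, 229, 923, 181 and 289 FPKM, with both ZT4 and ZT12 above the time between them.

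The difference in rhythm between genotypes was called for none of the 5 genes, against 7.78% of all genes for KO and WT, 3.51% for Liver-RE and WT and 0.238% for Liver-RE and KO. Before adjustment, 2 genes were under 0.05 for Liver-RE and KO, Cyp2d9 at 0.00494 (adjusted p = 0.190) and Hsd3b5 at 0.0351 (adjusted p = 0.360), and none for the other pairs. Of all 11759 genes, 1460 were under 0.05 for Liver-RE and KO, 2892 for KO and WT and 2094 for Liver-RE and WT. Without the filter on low values, Cyp4a12a had an unadjusted p of 0.0178 for a rhythm in Liver-RE (adjusted p = 0.185). A p above the threshold does not show that these genes were flat.

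**Figure D2:**
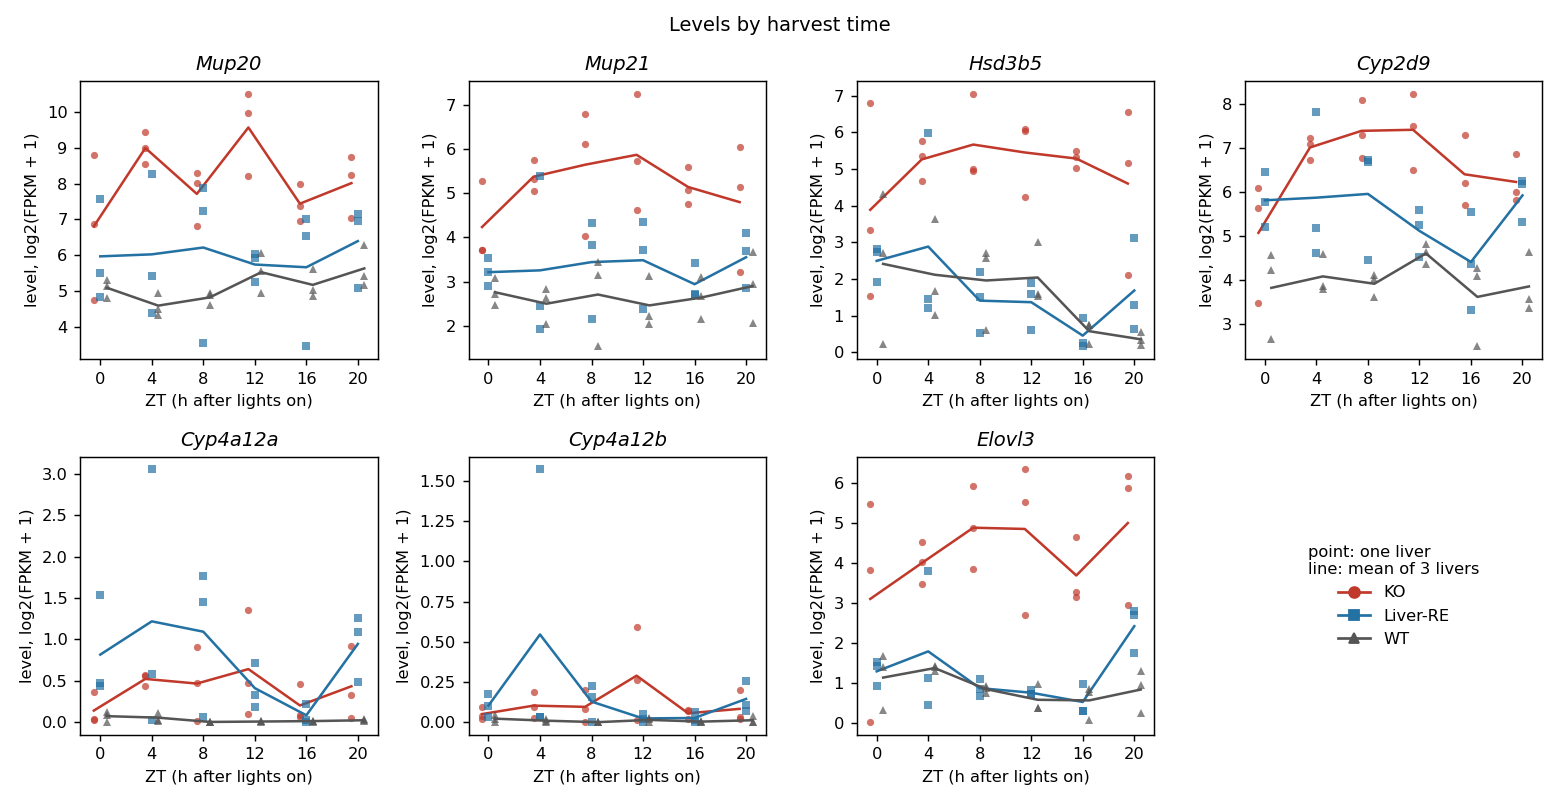
Level of each gene as log2(FPKM + 1) against harvest time in hours after lights on, with a point for each liver and a line through the mean of 3 livers for KO (circles), Liver-RE (squares) and WT (triangles). All KO livers lie above all WT livers from ZT4 to ZT20 for 5 of the genes, and livers of one genotype and time are far apart, as at ZT0 in KO, where Mup20 was at 25.8, 444 and 117 FPKM.

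In KO and Liver-RE many of the genes were high or low in the same livers. For each of 21 pairs, levels as log2(FPKM + 1) were correlated within a genotype after the mean of each harvest time had been removed, over 18 livers, with exact permutation within harvest time (46656 reorderings, two-sided) and adjustment over all 63 tests. Pearson's r was positive for 21 pairs in KO, 21 in Liver-RE and 18 in WT, with medians of 0.662, 0.764 and 0.299. The adjusted p was under 0.05 for 12 pairs in KO, 6 in Liver-RE and 3 in WT, and with Spearman's rho for 8, 6 and 3. Among the 10 pairs of the 5 tested genes, 7, 3 and 2 were called with Pearson's r and 5, 3 and 2 with Spearman's rho. The others held Cyp4a12a or Cyp4a12b, and in KO these 2, whose sequences overlap, were a called pair. The share of called pairs among all genes was not computed. The median r of all genes with Mup20 and Hsd3b5 was 0.235 and 0.261 in KO, against 0.0188 and 0.0232 in WT. Points of a pair come from the same library and share its depth and its scaling.

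In KO the closest pair was Mup20 and Elovl3, with r = 0.940 and rho = 0.934 (adjusted permutation p = 0.0127 and 0.0081) and r = 0.895 without the 2 livers farthest from the median of Mup20. Of 11758 other genes, Mup20 had the highest r with Elovl3 in KO. Both genes were high in the same KO livers, as at ZT12, where replicates 1, 2 and 3 had 1006, 1464 and 298 FPKM of Mup20 and 45.2, 80.7 and 5.51 FPKM of Elovl3. Hsd3b5 and Elovl3 followed with r = 0.857 and rho = 0.827 (adjusted permutation p = 0.0230 and 0.0217), and r = 0.796 without the 2 farthest livers. Mup20 and its relative Mup21 were less close, at r = 0.638 and rho = 0.583 (adjusted permutation p = 0.0567 and 0.102), and 15% of all genes had an r with Mup20 at least as high, around a median of 0.235.

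In Liver-RE the closest pair was Mup20 and Cyp2d9, with r = 0.940 and rho = 0.928 (adjusted permutation p = 0.0108 and 0.0081) and r = 0.921 without the 2 farthest livers. Each was the gene with the highest r to the other among 11758, and the median r of all genes with Mup20 was 0.0212. At ZT8, for instance, replicates 1, 2 and 3 had 149, 10.7 and 235 FPKM of Mup20 and 105, 21.0 and 103 FPKM of Cyp2d9. Mup20, Mup21, Cyp2d9 and Cyp4a12a made up all 6 called pairs, and Hsd3b5 and Elovl3 were in none. Hsd3b5 and Elovl3 had r = 0.619 but rho = 0.179 (adjusted permutation p = 0.385 and 0.624), and r = 0.073 without the 2 farthest livers.

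In WT, where the levels were low, Mup20 and Mup21 were in none of the called pairs, which were Cyp2d9 and Elovl3, Hsd3b5 and Cyp2d9, and Hsd3b5 and Cyp4a12a. Cyp2d9 and Elovl3 had r = 0.845 and rho = 0.785 (adjusted permutation p = 0.0240 and 0.0217), and r = 0.718 without the 2 farthest livers. Mup20 and Elovl3, the closest pair of KO, had r = -0.463 and rho = -0.439 in WT (adjusted permutation p = 0.164 and 0.205), r = -0.293 without the 2 farthest livers. Whether a pair's r differed between genotypes was not tested.

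**Figure D3:**
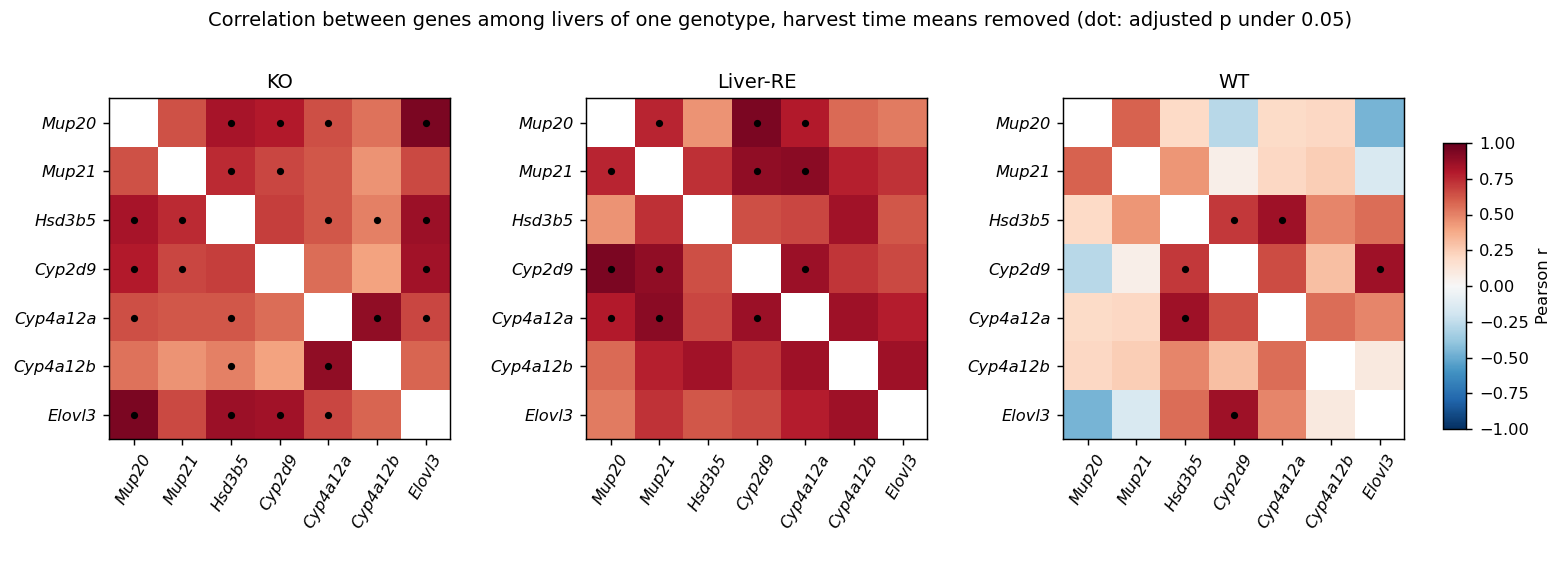
Pearson's r between each pair of genes among 18 livers of one genotype, on log2(FPKM + 1) after removal of the harvest time means, with KO, Liver-RE and WT from left to right; a dot marks an adjusted permutation p under 0.05. All pairs are positive in KO and Liver-RE, and r ranges from -0.463 to 0.851 in WT.

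Single livers stood apart from the others of their genotype in many of the genes at once. Liver-RE ZT4 replicate 2 was the highest of 18 Liver-RE livers in all 7 genes, with 308 FPKM of Mup20, 41.1 of Mup21, 62.3 of Hsd3b5, 227 of Cyp2d9, 7.32 of Cyp4a12a, 1.97 of Cyp4a12b and 13.0 of Elovl3. It exceeded the next highest Liver-RE liver 8.08 times for Hsd3b5 and 1.31 times for Mup20. Without it, the ratio of the Liver-RE mean to the WT mean changed to 0.660 for Hsd3b5, against 1.6 with it. For Cyp2d9 the ratio was 3.02 without it and 3.63 with it, and for Elovl3 it was 1.61 and 2.27. The median r of the 21 pairs in Liver-RE was 0.321 without that liver, with 19 pairs positive and still 6 called.

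That liver had 28.7 M reads, and its hepatocyte markers summed to 40345 FPKM, within the Liver-RE range of 33560 to 68771. Among 22 genes known to be more abundant in female liver, 12 were among the 3 lowest Liver-RE values in it and none was among the 3 highest. Such counts were not peculiar to it, with 13 of the 22 among the 3 lowest in Liver-RE ZT0 replicate 1 and 10 in ZT16 replicate 3, where 4 of the 7 genes were also among the 3 lowest. The part of any of these in its high levels was not tested.

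KO ZT0 replicate 1 stood at the other end. It was the lowest KO liver for Mup20, Hsd3b5, Cyp2d9 and Elovl3 and among the 3 lowest for 6 of the 7 genes, and 10 of the 22 genes known from female liver were among the 3 highest KO values in it, against 11 in KO ZT16 replicate 2. Its hepatocyte markers summed to 24404 FPKM, the lowest of the KO livers, against a KO median of 31761, and its cholangiocyte markers to 76.2 FPKM, against a KO median of 37.4. By genotype means the cholangiocyte sum rests mostly on Spp1. Endothelial and stellate cell markers, at sums of 143 and 143.2 FPKM, were also the lowest of the KO livers, against KO medians of 170.5 and 163.7, and the sum of FPKM over all genes was the lowest of the 54 libraries. It had 25.4 M reads, and the part of these in its low levels was not tested. Without it the ratio of the KO mean to the WT mean was 11.3 for Mup20, against 10.7 with it, and 31.7 for Elovl3, against 29.9 with it. Without the 2 libraries with clock genes out of place, these ratios were 10.5 for Mup20 and 29.7 for Elovl3. Without KO ZT0 replicate 2, 2 pairs were called in KO in place of 12, with all 21 still positive and a median r of 0.617.

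**Figure D4:**
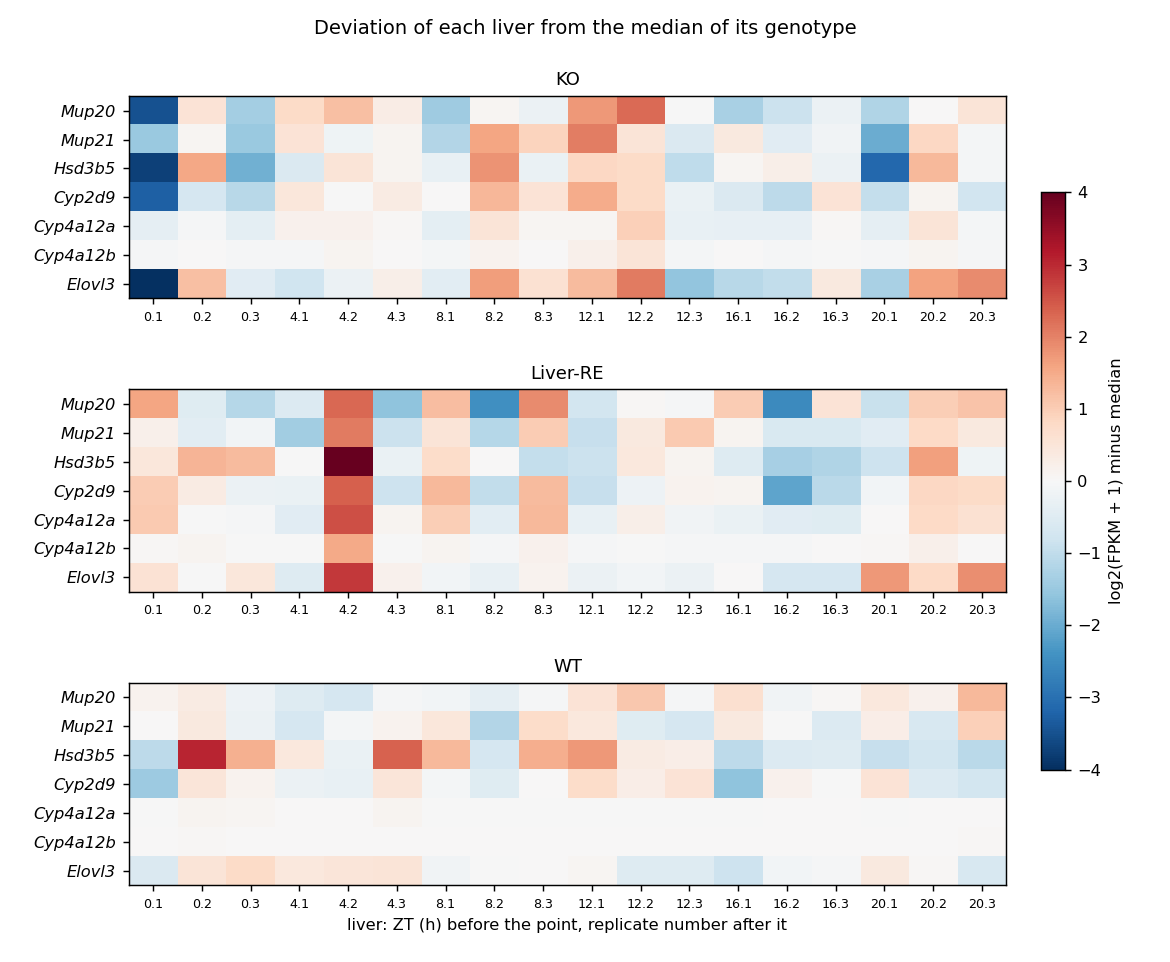
Difference of each liver from the median of its genotype on the log2(FPKM + 1) scale, for the 7 genes (rows) and 18 livers (columns, ZT before the point and replicate after it) of KO, Liver-RE and WT from top to bottom; colours end at 4 and -4. KO ZT0 replicate 1 is dark blue in 4 genes and Liver-RE ZT4 replicate 2 is red in all 7.

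The genes whose profile was most like that of the 5 tested genes were sought over the 18 means by genotype and harvest time, among 10064 genes, by Pearson's r with their averaged standardized profile. Since these means differ mainly by genotype, the values describe the order of genotypes. Sult2a7, a sulfotransferase, came first with r = 0.965, and averaged 13.5 ± 11 FPKM in KO, 2.75 ± 1.90 FPKM in Liver-RE and 0.729 ± 0.390 FPKM in WT (SD, n = 18). F2r, a thrombin receptor (r = 0.959), Scp2, which encodes a sterol carrier protein (r = 0.955), Nox4, an NADPH oxidase (r = 0.948), and Gstm6, a glutathione transferase (r = 0.941), followed. Scp2 was the most abundant of them, at 765 ± 251 FPKM in KO, 390 ± 140 FPKM in Liver-RE and 302 ± 36.4 FPKM in WT.

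Among the most opposite profiles were those of Sult2a2, a sulfotransferase (r = -0.980), Slc22a26, a member of the organic anion transporter family (r = -0.962), Cyp2a4, a steroid hydroxylase (r = -0.959), and Cyp2b9, a cytochrome P450 (r = -0.944). Sult2a2 averaged 2.59 ± 4.32 FPKM in KO, 65.7 ± 55.0 FPKM in Liver-RE and 98.4 ± 49.3 FPKM in WT.

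Among other genes known as more abundant in male mouse liver, some were also higher in KO. Of 26 listed, 21 could be tested. This list and those of female-biased and signalling genes below were chosen with earlier results of these data known. Their counts beside the shares of all genes are therefore a description and no independent support. In KO against WT, 8 were higher, against 16.5% of all genes, and 1 was lower, against 13.5%, with a median log2 difference of 0.32, against 0.02 over all genes. The 8 include Mup7 and Mup12, already counted above as relatives of Mup20 and Mup21. Mup12 passed the minimum mean only with its KO libraries. Sdr9c7, a short-chain dehydrogenase, had the lowest p, at 24 FPKM in KO and 8.85 FPKM in WT (log2 difference 1.33 ± 0.128, adjusted p = 7.37e-12). Nudt7, a peroxisomal hydrolase of coenzyme A, averaged 248 FPKM in KO and 123 FPKM in WT (0.96 ± 0.227, adjusted p = 0.00088). Serpina1e, one of several near-identical protease inhibitors, was the one that fell, to 121 FPKM in KO, against 277 FPKM in WT (-2.54 ± 0.605, adjusted p = 0.000945).

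In Liver-RE against WT, 2 of these 21 were higher, Nat8f5 (0.80 ± 0.140) and Susd4 (0.41 ± 0.075), against 1.18% of all genes. Both passed the minimum mean of 0.5 FPKM only through Liver-RE, where they averaged 1.21 and 0.935 FPKM. Their means were 0.291 and 0.272 FPKM in KO and 0.0734 and 0.396 FPKM in WT. Their calls as higher in Liver-RE, here and against KO, are therefore not independent of that filter. Serpina1e was the 1 that was lower, against 5.88% (-1.86 ± 0.605, adjusted p = 0.0491). In Liver-RE against KO, 2 were higher, again Nat8f5 and Susd4, against 7.42% of all genes. In this comparison 4 were lower, against 26.7%, with a median of -0.30, against -0.07 over all genes. The lower ones were Sdr9c7 (-1.55 ± 0.128), Slco1a1, an organic anion transporter (-1.50 ± 0.370), Dhrs11 and Ugt2b38, the last 2 named after their values had been seen. Dhrs11 was not called after quantile normalization (limma, adjusted p = 0.0557). Without Liver-RE ZT4 replicate 2 there were 10 lower in place of 4. After quantile normalization the calls of all genes for Liver-RE against KO were 46.9% higher ones, against 21.8% in the values as deposited, and for Liver-RE against WT 47.5%, against 16.7%.

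Genes known as more abundant in female mouse liver moved in the opposite direction to the 7 in most cases. Of 22 tested, 17 were lower in KO than in WT, against 13.5% of all genes, and 1 was higher, against 16.5%, with a median log2 difference of -2.19. As with the male-biased list, the choice of these genes was not independent of the data. Cyp2a4 averaged 3.85 FPKM in KO, 206 FPKM in Liver-RE and 602 FPKM in WT, and fell by 7.01 ± 0.228 on the log2 scale in KO against WT (adjusted p = 9.64e-30). The 1 higher gene was Ntrk2, a neurotrophin receptor, at 3.71 FPKM in KO and 0.588 FPKM in WT (1.55 ± 0.108, adjusted p = 9.38e-17).

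Liver-RE stood between the other groups for many of these genes. Of the 22, 16 were higher in Liver-RE than in KO, against 7.42% of all genes, and 4 lower, against 26.7%, with a median of 1.12. In Liver-RE against WT, 1 was higher, against 1.18%, and 12 were lower, against 5.88%, with a median of -0.77. Cyp3a44, a cytochrome P450, had the lowest p against WT, with 5.43 FPKM in Liver-RE and 68.6 FPKM in WT (-3.37 ± 0.370, adjusted p = 5.26e-09). Cyp2b13 was above WT in Liver-RE, with 67.4 FPKM, against 32.4 FPKM in WT (0.94 ± 0.273, adjusted p = 0.0274). The 4 lower than KO were Ntrk2 and, named after their values had been seen, Hao2, Cyp2c69 and Cyp2c40.

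The receptor and its signalling chain had small differences apart from Cux2. Of 17 genes tested, 2 were higher in KO than in WT, against 16.5% of all genes, and 4 were lower, against 13.5%, with a median log2 difference of -0.03. Stat5b averaged 14.1 FPKM in KO, 11.6 FPKM in Liver-RE and 11.5 FPKM in WT, a log2 difference of 0.29 ± 0.066 for KO minus WT (adjusted p = 0.000619). Stat5a, its close relative, differed by 0.18 ± 0.067 (adjusted p = 0.0341), and was not called after quantile normalization. Jak2 fell by 0.16 ± 0.049 (adjusted p = 0.00922), Hnf4a, a factor of hepatocyte identity, by 0.27 ± 0.079 (adjusted p = 0.00736) and Lifr, a cytokine receptor, by 0.34 ± 0.128 (adjusted p = 0.0369).

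Cux2, a repressor of male-biased genes that is abundant in female liver, had the largest difference of the chain, at 0.599 FPKM in KO, 2.26 FPKM in Liver-RE and 4.30 FPKM in WT. It is also on the female-biased list and was already counted there in every comparison. Its log2 difference was -1.73 ± 0.168 for KO minus WT, -0.79 ± 0.168 for Liver-RE minus WT and 0.94 ± 0.168 for Liver-RE minus KO (adjusted p = 7.52e-12, 0.00197 and 1.69e-05). Ghr, the receptor itself, averaged 112 FPKM in KO, 104 FPKM in Liver-RE and 105 FPKM in WT and was not called (0.10 ± 0.066 for KO minus WT, adjusted p = 0.266). Nor were Socs2 (-0.04 ± 0.280), Cish (0.09 ± 0.256) and Igf1 (-0.09 ± 0.138), genes that STAT5b induces, called in any comparison. These 4 were named after their values had been seen.

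In Liver-RE against WT, Cux2 and Igfals, which carries IGF1 in the blood (-0.48 ± 0.139, adjusted p = 0.0279), were the 2 called, and both were lower, against 5.88% of all genes. In Liver-RE against KO, Stat5b (-0.27 ± 0.066) and Stat5a (-0.22 ± 0.067) were lower, against 26.7% of all genes, and Cux2 was higher, against 7.42%. After quantile normalization Stat5b was still called and Stat5a was not.

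**Figure D5:**
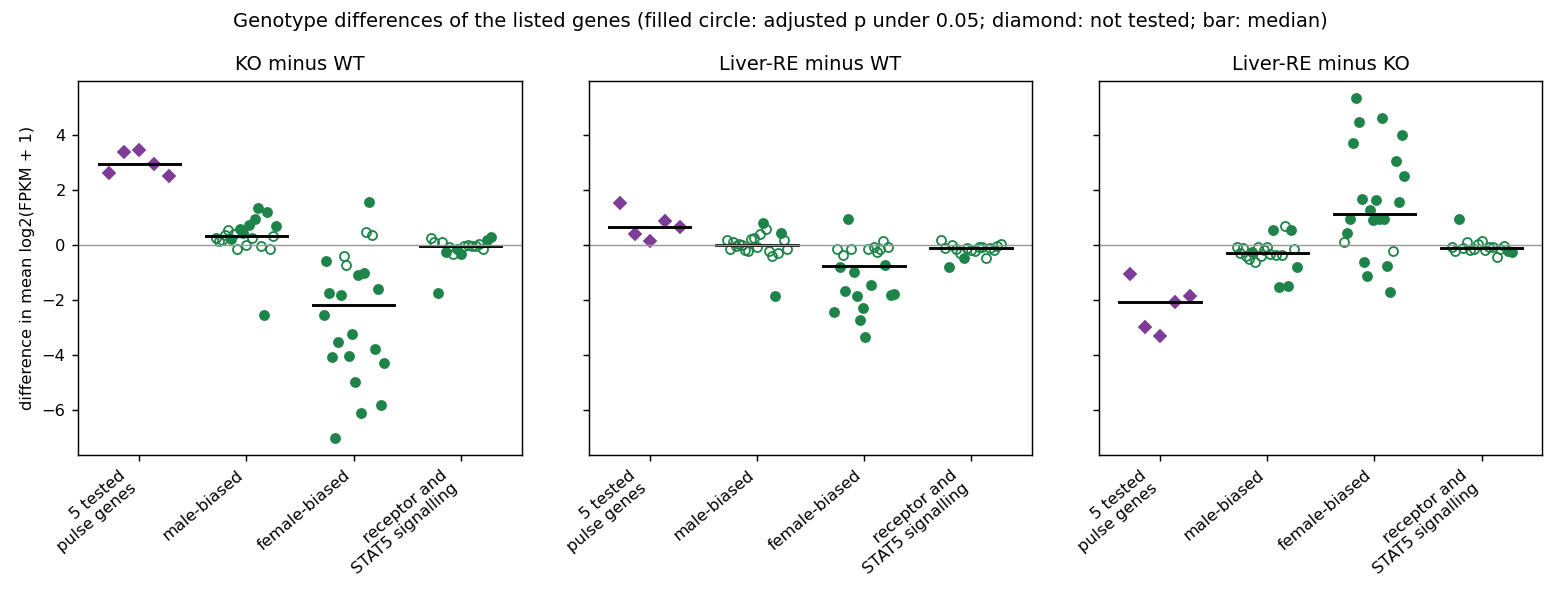
Difference in mean log2(FPKM + 1) for KO minus WT, Liver-RE minus WT and Liver-RE minus KO, with a point for each gene: diamonds are 5 of the 7 genes, without a test, and circles the listed male-biased, female-biased and signalling genes, filled where the adjusted p was under 0.05; bars are medians. The medians for KO minus WT were 0.32 for the male-biased and -2.19 for the female-biased list, while the signalling genes lie near 0 apart from Cux2 at -1.73.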

How the data were processed

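The data are RNA-seq values of 54 mouse livers. Per the labels' protocols, stranded libraries were made from total RNA without ribosomal RNA and read from one end. CASAVA 1.8.2 and the build mm10 appear, without a role, in the submitters' processing notes. No source used here names the aligner, counter or annotation. The values the authors deposited, one per gene and library, have no named unit and were taken as FPKM, scaled by the authors for gene length and depth, because low values fall on steps that follow transcript length. Whole reads were not recovered (a median of 30.0% of low values lay below 0.5 of a step), so no count model was used and no counting interval is given; the labels name no batch.

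The 7 genes, the gene lists and the tests were chosen with earlier results of these data known. For 11759 genes with a mean of at least 0.5 FPKM (6320 fell below), a limma model (version 3.58.1 in R 4.3.3; eBayes, trend) of log2(FPKM + 1), a scale that understates changes of low genes, held for each genotype a mean and a cosine and sine of 24 h. All 54 libraries were in a single fit, which shared a spread per gene across genotypes. P-values were adjusted by Benjamini-Hochberg over all genes, with a threshold of 0.05. The functions were tested on simulated data. Pair correlations used exact permutation (Python 3.11.15, scipy 1.17.1). Named were all 7 genes, the 5 most alike and 5 most opposite genes with a mean of at least 1, all relatives of the 7, and up to 4 genes per list and comparison with the smallest p; 1 gene that this rule names is not reported here. Replicate numbers were not taken as pairing mice. Sequences are from RefSeq and GENCODE.

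The alternatives tried were a block for replicate number, another pseudocount (0.1), quantile normalization, no filter, a mean per harvest time, only the genotypes concerned, each library left out and, chosen after seeing the data, 2 libraries with shifted clock genes left out.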

Additional observations from a re-analysis of the deposited data

How the results depend on the processing

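All 5 tested genes kept a positive log2 difference for KO minus WT and a negative one for Liver-RE minus KO under every alternative. Elovl3 differed by 4.24 for KO minus WT with a pseudocount of 0.1, against 3.37 with 1. For Liver-RE minus WT, Hsd3b5 lay between -0.0817 (without Liver-RE ZT4 replicate 2, leaving 4 of 5 positive) and 0.315 with one library left out. For rhythms, 914 of 915 values stayed on their side of the threshold. The exception was Elovl3 in WT with only the genotypes concerned (limma, adjusted p = 0.0471, against 0.542 to 0.753 with a single library left out). This made 1 rhythmic gene in place of 0, in a fit whose spread came from WT alone. No difference in rhythm was called under any alternative. Called pairs ranged with one library left out between 2 and 15 in KO, 6 and 8 in Liver-RE and 2 and 4 in WT, and a pseudocount of 0.1 gave 6 in WT. With the replicate number as a block, 9 pairs were called in KO, 11 in Liver-RE and 4 in WT; deviations of libraries of one number correlated over 0.1 in 8 of 18 pairs for KO and WT, 6 of 18 for Liver-RE and WT and 11 of 18 for Liver-RE and KO (medians 0.033, 0.032 and 0.149), short of every pair, so the numbers were not taken as pairing, and the block changed no other count by over 1.5 times. Male-biased genes lower in Liver-RE than in WT were 0 in place of 1 with no filter, a pseudocount of 0.1, quantile normalization or without the 2 libraries with shifted clock genes, and 0 to 1 with one library left out. Those lower in Liver-RE than in KO were 4 to 10 with one left out. Female-biased genes higher in Liver-RE than in WT were 0 in place of 1 with a pseudocount of 0.1 and without the 2 shifted libraries. Those lower in Liver-RE than in KO were 2 in place of 4 with no filter, 1 with only the genotypes concerned, 1 with quantile normalization and 1 to 4 with one left out. The cause of these changes was not tested. Depth limits Cyp4a12a and Cyp4a12b, at about 6.57 and 1.97 reads at most in WT.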
